A study of Mus musculus with 48 samples.

Results

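Accessible chromatin was compared between OT-1 CD8 T cells that carried a guide RNA against Dusp5 and cells with the guide labelled OTC control, in the transitory, effector-like state (Ttran), in tumours of aged mice. The comparison was chosen by its labels and holds 4 of the 48 libraries of the series, 2 with each guide, read over all 53868 peaks. The donor cells were CD45.1 OT-1 CD8 T cells, whose receptor recognises an ovalbumin peptide, and they expressed Cas9 in both groups. A lentivirus carried the guide and an ametrine reporter, and sorted ametrine-positive cells entered the mice the day before B16-OVA melanoma cells were inoculated. At day 15 the cells were sorted from the tumours, and Ttran cells were those positive for Slamf6 and for Tim-3, the product of Havcr2. Both groups therefore share Cas9, transduction, the transfer and the aged host, and they differ in the guide. The label A in the sample titles was read as aged. Cells from separate mice were pooled into the replicates of a group, so the tests measure the spread between pools. Which mice entered which pool, and how many guides were used against Dusp5, are not given in the sources used here.

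DUSP5 is a dual-specificity phosphatase of the nucleus that dephosphorylates and holds the kinases ERK1 and ERK2, and its own gene is switched on by ERK signalling, so it acts in a negative feedback. In T cells ERK is activated downstream of the T cell receptor and drives immediate-early genes such as those of the FOS, JUN and EGR families. Chronically stimulated CD8 T cells pass from a progenitor state (Tprog) through a transitory state with effector features to a terminally exhausted one (Tterm). ATAC-seq counts transposase insertions and so reads how open a stretch of chromatin is. It measures neither the level of a transcript nor whether a guide has cut its target.

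The targeted gene lies at chr19:53529145-53541809 and 17 peaks were assigned to it. The promoter of Dusp5 and 3 promoters that the results below turn on are printed first. Each is the RefSeq window from 250 bases before to 50 bases after the start, in build GRCm38.p6. Capitals mark matches, on either strand, to the motifs named further on: a pair of adjacent CArG boxes (the site of serum response factor) in Dusp5, a CRE site in Kctd8 and a RUNX site in Ly6c2. The window of Eps8l1 held no match.
Dusp5, chr19:53528895-53529194, plus strand: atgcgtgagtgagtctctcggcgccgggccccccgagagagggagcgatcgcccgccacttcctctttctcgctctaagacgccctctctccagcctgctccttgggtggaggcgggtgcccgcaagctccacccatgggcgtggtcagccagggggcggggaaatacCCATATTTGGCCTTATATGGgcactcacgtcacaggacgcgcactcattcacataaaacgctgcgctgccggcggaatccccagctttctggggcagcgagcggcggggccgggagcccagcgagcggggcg
Eps8l1, chr7:4464485-4464784, plus strand: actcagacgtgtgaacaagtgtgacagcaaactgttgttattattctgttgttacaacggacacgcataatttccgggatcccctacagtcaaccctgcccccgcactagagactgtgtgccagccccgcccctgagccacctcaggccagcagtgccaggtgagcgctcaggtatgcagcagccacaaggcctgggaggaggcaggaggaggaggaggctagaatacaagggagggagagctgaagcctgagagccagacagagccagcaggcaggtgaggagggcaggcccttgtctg
Kctd8, chr5:69341660-69341959, minus strand: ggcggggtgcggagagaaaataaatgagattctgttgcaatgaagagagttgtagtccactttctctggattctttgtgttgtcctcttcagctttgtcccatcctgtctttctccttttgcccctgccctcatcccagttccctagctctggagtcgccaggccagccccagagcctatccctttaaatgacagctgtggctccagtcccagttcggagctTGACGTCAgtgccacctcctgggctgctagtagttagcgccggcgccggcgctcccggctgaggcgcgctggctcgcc
Ly6c2, chr15:75111922-75112221, minus strand: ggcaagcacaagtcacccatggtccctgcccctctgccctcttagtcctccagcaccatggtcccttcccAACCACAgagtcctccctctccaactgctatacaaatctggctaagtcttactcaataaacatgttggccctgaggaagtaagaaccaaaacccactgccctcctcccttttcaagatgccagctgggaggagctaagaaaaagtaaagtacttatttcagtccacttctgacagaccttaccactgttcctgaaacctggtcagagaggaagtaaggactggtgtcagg

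Values are normalized reads per peak, the authors' read counts divided by a size factor per library. The 4 compared libraries held 11783429 and 14913637 reads in peaks with the Dusp5 guide and 9060635 and 8547780 with the control guide, against a median of 14691505 over all 48. The share of the signal in the strongest 1000 peaks set the control Ttran pair apart. It was 16.2% and 16.1% in them, the highest of all 48 libraries, against 14.9% in both Dusp5 libraries and a median of 14.6%. Both control libraries stood apart in this way, so no value without them can be given. The main counts are therefore printed also after quantile normalization, which gives every library the same distribution of values. Signs and calls of the Dusp5 guide in the other states and in young hosts were counted in the deposited scaling only. Peaks near markers of other cell types were summed in each library. B cell markers gave 1232 and 1130 against 1252 and 1336, melanoma markers 2849 and 3172 against 3321 and 3380, and stroma markers 3458 and 3412 against 3547 and 3769. CD4 and regulatory T cell markers gave 2147 and 2220 against 2398 and 2490. In these 4 lists both Dusp5 libraries were the lower ones. Myeloid markers (3068 and 2941 against 2881 and 3201) and NK markers (3591 and 3099 against 3291 and 3203) overlapped between the groups. Over the 6 marker lists for other cell types, Cd14 and Klrb1c had a peak that rose and Cd4 and Pmel a peak that fell. No marker peak of those lists stood at 0 reads in any of the 4 libraries. Peaks near T cell identity genes summed to 62072 and 60741 with the Dusp5 guide and 68224 and 67054 with the control guide, the first of which was the highest of all 48 libraries. The part of these differences in the results was not tested.

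At Dusp5 itself 2 of the 17 peaks fell and none rose, where 2.44% of all peaks fell and 1.36% rose, and 13 had a negative log2 fold change. The peak over the promoter (chr19:53528476-53530901) read 847 and 955 with the Dusp5 guide and 1036 and 1028 with the control guide. The Dusp5 libraries were both lower, by 0.20 ± 0.08 on the log2 scale (SE, adjusted p = 0.194), so this peak was not called. A distal peak 67133 bp away (chr19:53460413-53462012) read 1594 and 1559 against 2028 and 2178. It fell by 0.41 ± 0.08 (SE, adjusted p = 0.000237), and by 0.24 with an adjusted p of 0.0736 after quantile normalization. With the Zfp219 guide, against a zinc-finger gene, it read 1477 and 1420 in the same state and host, below the Dusp5 libraries. The second fall lay 5723 bp from the gene (chr19:53547532-53548085), with 246 and 214 against 430 and 300. Its log2 fold change was -0.64 ± 0.18 (SE, adjusted p = 0.0242), and the call was lost when a library was left out (highest adjusted p 0.40). The Zfp219 libraries read 285 and 267 there. At both peaks the control group was the highest of the 12 aged groups, and neither was called between the Dusp5 and Zfp219 guides (adjusted p = 0.418 and 0.463). Within 500 kb of the gene 91 peaks were measured, of which 10 fell and 0 rose. Falls were thus a larger share there than the 2.44% of all peaks. The others that fell lay near Add3, Mxi1, Smndc1 and the shared promoter of Shoc2 and Bbip1. Shoc2 encodes a scaffold of the Ras and ERK pathway, and this peak read 2128 and 1992 against 2628 and 2351. With the Zfp219 guide it read 1969 and 2247, values that overlap those of the Dusp5 libraries.

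Across the genome, in the deposited scaling, more peaks were less accessible with the Dusp5 guide than more accessible, and the falls lay at stronger peaks than the rises. Of 53868 peaks, 2047 were called at an adjusted p under 0.05 (limma, Benjamini-Hochberg over all peaks), which is 3.8%. Of these 730 rose (1.36% of all peaks) and 1317 fell (2.44%). All log2 fold changes were taken after adding 1 to each value, and at weak peaks they are therefore too small. The rises were larger, with a median log2 fold change of 1.0 against -0.48 for the falls, and 366 rises against 166 falls reached a size of 1. Peaks that fell had a median width of 1326 bp and a median level of 610 normalized reads. Peaks that rose had medians of 950.5 bp and 107 normalized reads, close to the 900 bp and 93.9 of all peaks. Among the strongest decile of peaks 38 rose and 607 fell, and among the weakest decile 51 rose and 18 fell.

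The balance of directions depended on the scaling and on the control libraries. With either control library left out, called rises and falls were near balance in the deposited scaling as well. Such a fit leaves the control group without a replicate. After quantile normalization 1291 peaks were called, 596 higher and 695 lower, and the share of calls that were higher went from 35.7% to 46.2%. In the strongest decile the split became 104 higher and 109 lower, so the surplus of falls among strong peaks was not kept. The median log2 fold change of that decile went from -0.09 to 0.01. Of the 730 rises 527 were also called after quantile normalization, and of the 1317 falls 660. Values of the groups did not overlap at 2041 of the 2047 called peaks, against 43.7% of all peaks. The count also leaned on single libraries: 706 peaks were called without Dusp5 replicate 1 and 908 without Dusp5 replicate 2. Of the 93 called peaks that were named by rule, 40 were called without each of the 4 libraries in turn.

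**Figure D1:**
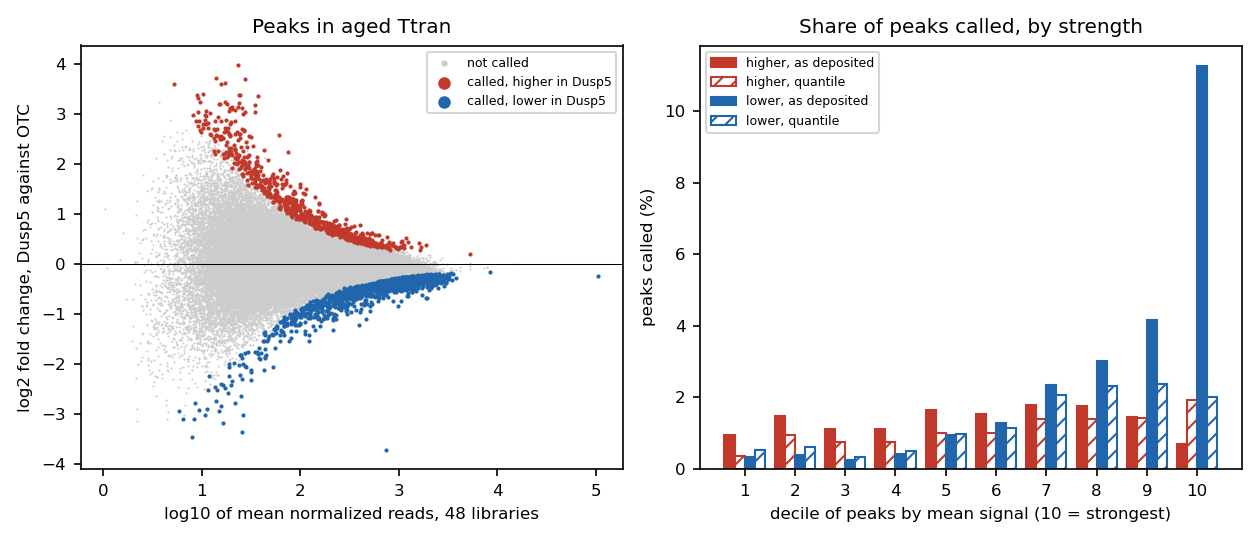
Left, log2 fold change of the Dusp5 guide against the control guide (y axis) by log10 of the mean normalized reads over 48 libraries (x axis), 1 point per peak, with called peaks coloured. Right, percent of peaks called in each decile of strength, higher and lower, as deposited and after quantile normalization: 607 falls in the strongest decile became 109.

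Among the 12 aged groups, 3 guides by 4 states, the control Ttran group was the extreme one at many of these peaks. It was the highest of the 12 at 665 of the 1317 falls (50.5%), against 9.58% of all peaks. It was the lowest at 478 of the 730 rises (65.5%), against 10.9% of all peaks. The Dusp5 Ttran group was the lowest at 268 falls (20.3%), against 6.21% of all peaks. It was the highest at 225 rises (30.8%), against 6.76% of all peaks. The comparison fixes the direction of these counts, so they are a description.

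The clearest single fall was a peak within Thy1, the gene of the surface glycoprotein CD90 of T cells. This peak (chr9:44046603-44047436) read 193 and 266 with the Dusp5 guide against 2944 and 3051 with the control guide. Both Dusp5 libraries were far below both controls. The log2 fold change was -3.72 ± 0.14 (SE, adjusted p = 8.53e-40). The neighbouring peak of the same gene (chr9:44043058-44044719) read 436 and 387 against 448 and 363, a log2 fold change of 0.02. Of the 14 peaks assigned to Thy1, 1 other was called, and it rose by 1.59.

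Across the series the level of the Thy1 peak was graded and followed neither the state nor the guide alone. In aged hosts the control group averaged 2998 in Ttran, 129 in Tprog, 894 in Tterm and 4748 in Ttad, the cells negative for both Slamf6 and Tim-3. The Dusp5 groups averaged 230, 200, 123 and 190 in the same order. With the Zfp219 guide the averages were 3155, 205, 130 and 617. Young groups averaged between 192 and 585. Which mice share a pool is not given, so this difference and differences between pools cannot be told apart.

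**Figure D2:**
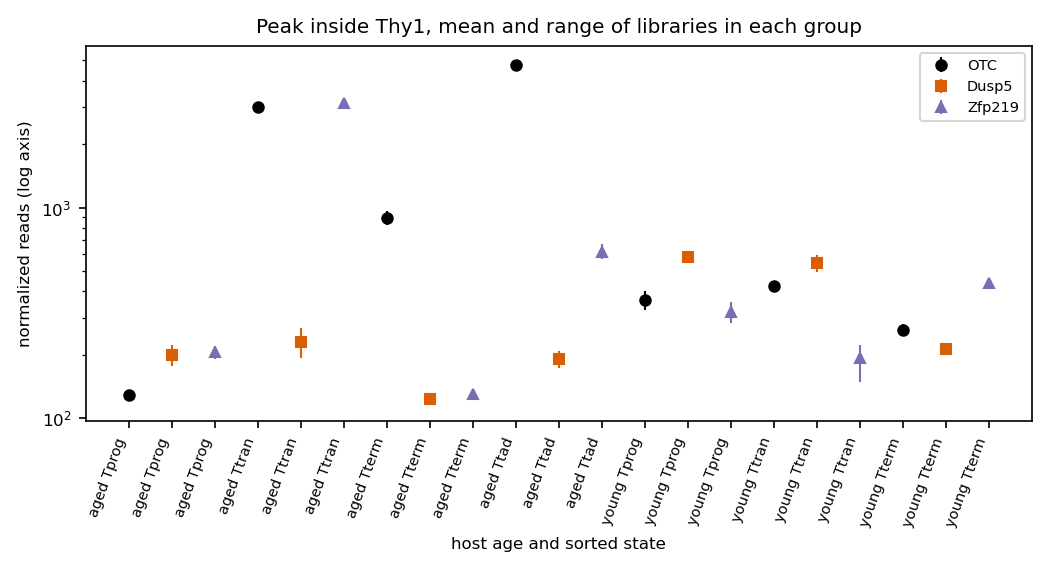
Normalized reads at the Thy1 peak on chromosome 9 in each of the 21 groups of the series; points are group means and lines span the lowest to the highest library. The aged control Ttran group averages 2998 and the aged Dusp5 Ttran group 230.

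The next 4 falls by adjusted p were at Galnt2, Epas1, Cmip and Gtf2i. Galnt2, which encodes an enzyme that starts O-linked glycans, had a peak (chr8:124317155-124320131) with 1776 and 1716 reads against 2696 and 2925. It fell by 0.69 ± 0.07 (SE, adjusted p = 5.03e-13). A peak 43010 bp from Epas1, the gene of the hypoxia factor HIF-2alpha, read 246 and 276 against 579 and 636 and fell by 1.22 ± 0.13 (SE, adjusted p = 3.29e-11). Cmip encodes an adaptor linked to T cell signalling, and its peak at chr8:117287678-117289638 read 1597 and 1589 against 2413 and 2473. It fell by 0.62 ± 0.07 (SE, adjusted p = 1.94e-09). A peak in Gtf2i, the gene of the transcription factor TFII-I, read 212 and 271 against 564 and 473 and fell by 1.10 ± 0.14 (SE, adjusted p = 1.5e-08). At all 5 peaks, Thy1 included, the groups were apart, and the calls held without each library in turn and after quantile normalization. The libraries with the Zfp219 guide, 1893 and 1847 at Galnt2 and 1542 and 1520 at Cmip, are given for their level and lay near the Dusp5 libraries there, unlike at Thy1.

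The rises with the smallest adjusted p-values came at weak peaks. A peak 28999 bp from Mpp6, a scaffold protein of membrane complexes, read 31.1 and 19.3 against 0 and 1.59. These are 50 reads against 1, a ratio of depth-scaled reads of 31.7 (95% counting interval 5.44 to 1278). The log2 fold change was 3.99 ± 0.56 (SE, adjusted p = 6.18e-07). In Eml4, which encodes a microtubule-binding protein, a peak read 113 and 102 against 30.1 and 9.57 and rose by 2.58 ± 0.37 (SE, adjusted p = 1.02e-06). A peak 61920 bp from Med13, a part of the Mediator kinase module, read 27.8 and 29.0 against 3.01 and 1.59, or 58 reads against 3. The ratio was 12.3 (95% counting interval 3.99 to 61.2). In Zfp668 a peak read 48.9 and 37.8 against 1.5 and 6.38 and rose by 3.36 ± 0.49 (SE, adjusted p = 1.69e-06). With so few control reads the size of these changes is loosely set, although the groups did not overlap at any of them and the calls held without each library in turn. Counting intervals cover counting error only.

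**Figure D3:**
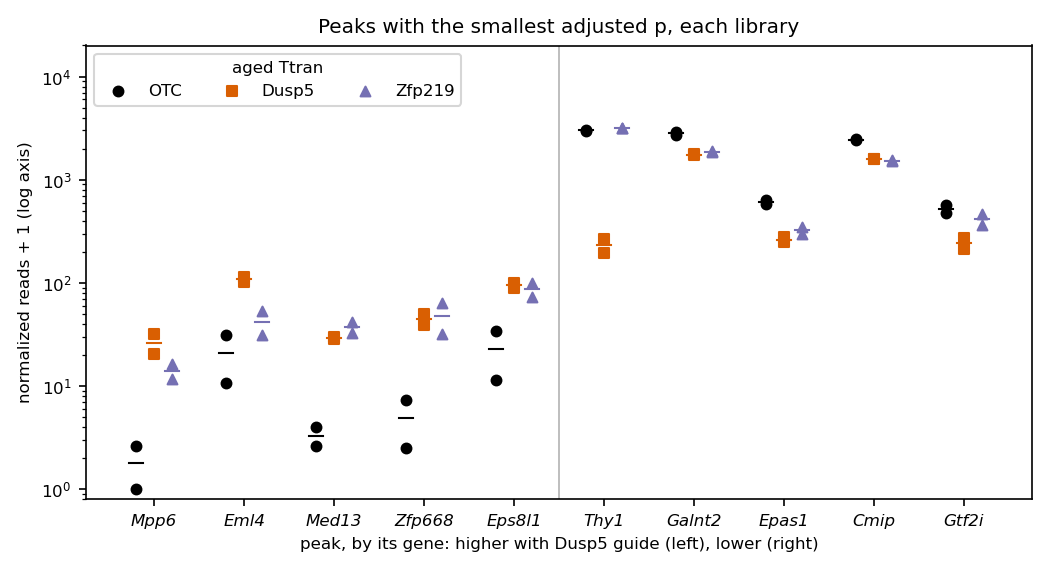
Normalized reads + 1 on a log axis in each aged Ttran library with the control, Dusp5 and Zfp219 guide, for the 5 rises (Mpp6, Eml4, Med13, Zfp668, Eps8l1) and 5 falls (Thy1, Galnt2, Epas1, Cmip, Gtf2i) with the smallest adjusted p. At Thy1 the 2 Dusp5 libraries read 193 and 266 and the 2 control libraries 2944 and 3051.

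Apart from Thy1, the largest changes in size were at weak peaks. The 10 largest rises ran up to Mpp6 and included Krba1 (17.8 and 22.9 against 0 and 1.59), Ankrd22, Slc6a5, Vil1, P4ha1, Zfp706, Igf1 and a peak 86857 bp from the nuclear receptor gene Nr4a3. That Nr4a3 peak read 26.7 and 22 against 0 and 4.78. The 10 largest falls ran from Thy1 through Saxo1 (2.22 and 1.76 against 30.1 and 33.5), Iqgap1, Kif1a, Nsmaf, Dpf3, Itpr1, Kat6b and Hpse2 to Moxd1. Calls held without each library in turn at 4 of the 10 rises and, among the falls, at Thy1 alone.

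Some genes carried several called peaks. Cmip held 10 falls among 24 peaks (8 after quantile normalization), and 22 of its 24 peaks had a negative log2 fold change. Runx2 held 9 falls among 45 peaks and Runx3 8 among 23; both encode RUNX factors, and RUNX3 maintains CD8 identity and cytotoxic genes. After quantile normalization 5 Runx2 peaks and 4 Runx3 peaks were called as falls. The strongest Runx3 change (chr4:135168417-135169906) read 765 and 730 against 1208 and 1294, a fall of 0.74 ± 0.10 (SE, adjusted p = 5.83e-08). Itpr1, the gene of a calcium release channel, and Prex1, the gene of a Rac exchange factor, held 7 falls each, among 44 and 32 peaks (5 and 4 after quantile normalization). On the other side, 11 of 14 neighbouring peaks rose at chr6:47635820-47763836, a region of the predicted genes Gm40363, Gm40365 and Gm40369. Summed over that region, the Dusp5 libraries read 13513 and 13329 and the controls 10743 and 10318. All 11 were called after quantile normalization too. Jazf1 held 3 rises among 21 peaks, Fcgr3, the gene of a low-affinity Fc receptor, 3 among 8, and Zfp213 3 among 4. After quantile normalization these 3 genes held 1, 3 and 3 rises.

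Promoter peaks were called about as often as all peaks. Of 9254 peaks over a promoter window 98 rose (1.06%, against 1.36% of all peaks) and 226 fell (2.44%, the share of all peaks), and after quantile normalization 126 rose and 25 fell, so no direction is given for promoters. At the Eps8l1 promoter, printed above, the peak read 99 and 87.9 against 10.5 and 33.5. Eps8l1 encodes an actin regulator, and its peak rose by 2.24 ± 0.34 (SE, adjusted p = 2.85e-06), also without each library in turn. The Kctd8 promoter peak fell by 1.10 ± 0.21 (SE, adjusted p = 0.00034), with 143 and 145 reads against 305 and 316. Ly6c2 encodes the effector and memory surface protein Ly6C, and its promoter peak read 41.1 and 54.5 against 84.2 and 113. It fell by 1.03 ± 0.26 (SE, adjusted p = 0.0103), a call lost when a library was left out (highest adjusted p 0.21). Its near-identical neighbour Ly6c1 can share reads with it, so this value is uncertain. Further promoter rises were Gsx2, Ceacam2, Epb41l1 and Adra2a, and further falls Atf7ip2, Nr3c2 and Naip2.

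Motif matches in promoter windows are given as a description. Of 21263 genes with a window, 11550 had it in a peak, 121 in a peak that rose and 284 in a peak that fell. The CRE motif TGACGTCA was found in 5.79% of windows at rises and 2.82% at falls, against 3.44% of windows in any peak and 2.23% of all windows. The AP-1 motif TGANTCA was found in 2.48% and 4.23%, against 4.54% in any peak and 6.99% of all. The ETS motif CCGGAAG was found in 18.2% and 13%, against 19.3% and 11.6%. The RUNX motif TGTGGTT was found in 1.65% and 3.52%, against 3.61% and 4.71%. The CArG box, searched after the Dusp5 window had been seen, was in 0.826% and 1.76% of windows, against 1.14% in any peak and 1.52% of all. The shares at rises rest on 1 to 22 windows each. Both strands were searched for each motif, and AP-1 and CRE share bases where their letters overlap.

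The genes of the ERK pathway were grouped by role. The list of ERK phosphatases and feedback inhibitors holds 17 genes, not all of which act mainly on ERK. Among its 140 peaks 0 rose and 5 fell (3.57%, against 2.44% of all peaks). The 5 were the pair at Dusp5 and 1 each at Dusp2, Dusp10 and Dusp16. At Dusp2, an ERK phosphatase induced in activated T cells, the peak read 3994 and 3959 against 4798 and 4789 and fell by 0.27 ± 0.05 (SE, adjusted p = 8.64e-05). After quantile normalization 2 of the 140 peaks were called as falls. Among 145 peaks of the ERK cascade 2 rose, both at the Ras activator gene Rasgrp1, and 2 fell, at the scaffold gene Ksr1 and at Cic, a repressor that ERK inactivates. Cic read 3166 and 3068 against 3718 and 3676, a log2 fold change of -0.25, which became 0.01 after quantile normalization. Among 241 peaks at ERK-responsive immediate-early genes 4 rose and 7 fell, at 1.66% and 2.90%. The falls included Fosl2 (1642 and 1748 against 2205 and 2241) and Junb (2456 and 2498 against 3011 and 2879), both AP-1 subunits. The rises lay at Jun, Ets1, Ets2 and Klf6. With 1 of the 4 libraries left out falls became fewer at the phosphatases and the immediate-early genes, as they did over all peaks. The shares given above lie near those of all peaks.

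Lists of cell state genes held more falls than the background in several cases, in most of them through few genes. The lists here and in the next paragraph had median levels of 147 to 250 normalized reads, against 93.9 for all peaks. Strong peaks fell more often in the deposited scaling, and the shares of the lists were not matched for strength. Among 199 peaks at transitory effector genes 2 rose and 12 fell (6.03%), and 8 of the 12 were Runx3 peaks. Another lay at Prf1, the perforin gene, with 368 and 379 against 529 and 588. After quantile normalization 6 of the 199 were called as falls, against 695 of all 53868 peaks. At inflammatory and cytokine receptor genes 12 of 165 peaks fell (7.27%) and 2 rose. They included Tnfrsf18, the gene of the costimulatory receptor GITR (1279 and 1311 against 1707 and 1778), and Il4ra (697 and 678 against 975 and 976). At tissue residency genes 7 of 99 fell (7.07%) and 2 rose. The residency list includes the chemokine receptor gene Ccr8, with 474 and 599 against 787 and 776, and Itgae, the gene of CD103, with 445 and 401 against 277 and 287. After quantile normalization the receptor list held 7 falls and the residency list 4. With 1 of the 4 libraries left out, whichever it was, falls became fewer at transitory effector, receptor and residency genes. They became fewer over all peaks too, so the drop is not particular to these lists.

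The remaining lists are read against 1.36% of all peaks that rose and 2.44% that fell. At progenitor genes 3 of 294 peaks rose (1.02%) and 10 fell (3.4%), and at terminal exhaustion genes 10 of 275 rose (3.64%) and 12 fell (4.36%). Bach2, a repressor that preserves stem-like cells, had 4 falls, the strongest peak with 3332 and 3310 against 3956 and 3944. Its log2 fold change of -0.25 became 0.00 after quantile normalization. Nr4a2, a nuclear receptor gene induced by the T cell receptor, fell by 0.35 at a peak with 2949 and 2959 against 3833 and 3705. Cd101, a marker of terminal exhaustion, rose by 1.20 at a peak with 171 and 213 against 104 and 65.4. At chemokine and cytokine genes 0 of 138 peaks rose and 4 fell (2.90%), and at brakes on T cell receptor signalling 1 of 193 rose (0.518%) and 7 fell (3.63%). Socs1, an inhibitor of cytokine signalling, read 1029 and 890 against 1406 and 1326, and Tnfaip3, an inhibitor of NF-kappaB, 2232 and 2157 against 2852 and 2783. Among 176 peaks at T cell identity genes 6 rose (3.41%) and 8 fell (4.55%), and among 110 at cell cycle genes 1 rose (0.909%) and 2 fell (1.82%). Among 37 at interferon-stimulated genes 2 rose and 2 fell (5.41% each). With 1 of the 4 libraries left out, falls did not become more numerous at progenitor, terminal exhaustion or T cell identity genes or at the receptor brakes. Over all peaks they became fewer. At Usp18, which restrains interferon signalling, the peak rose from 63.2 and 65.4 to 132 and 134.

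The strongest peaks of the sorting genes and of several state genes were not called. The Slamf6 peak read 518 and 503 against 603 and 485, groups that overlapped. The Havcr2 peak read 1240 and 1209 against 1256 and 1304, a log2 fold change of -0.06 ± 0.08 (SE). The same held for Tcf7, the stem-like factor gene (944 and 921 against 1100 and 945), for Tox, the exhaustion factor gene (525 and 602 against 520 and 548), and for Cd8a (773 and 600 against 710 and 657). Elsewhere at Tox 2 of 27 peaks rose, by 0.72 and 1.15, and at its relative Tox2 2 of 7 rose, by 0.46 and 0.83; these were named after their values were seen. Pdcd1, the gene of PD-1, had 2505 and 2412 against 2610 and 2911 (adjusted p = 0.0714), and Cx3cr1 1699 and 1646 against 2007 and 1964 (adjusted p = 0.0564).

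**Figure D4:**
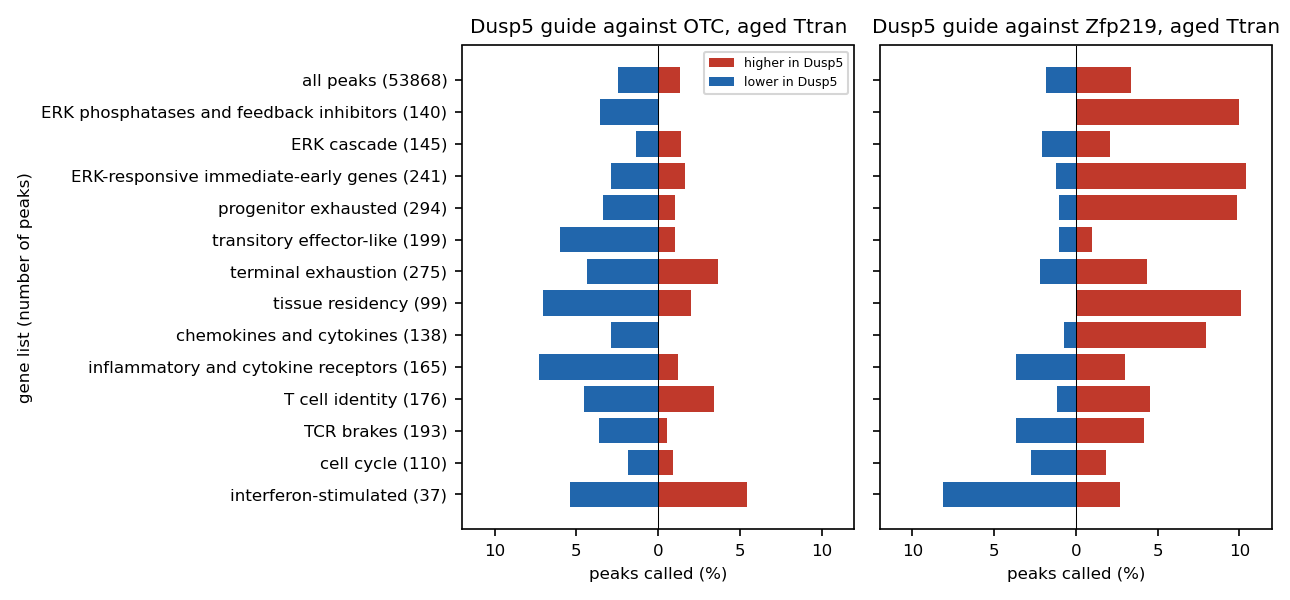
Percent of the peaks of each gene list called higher and called lower with the Dusp5 guide in aged Ttran cells, against the control guide and against the Zfp219 guide, with the share over all peaks drawn for each (1.36% and 2.44%, 3.37% and 1.82%). Against the control guide 12 of 199 peaks at transitory effector genes fell, and against the Zfp219 guide 25 of 241 peaks at immediate-early genes were higher.

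Peaks that mark a state in young control cells, or host age in Ttran cells with the Zfp219 guide, were defined from other libraries of the series. Progenitor-open peaks (3751, or 6.96% of all) held 61 rises and 52 falls. Terminal-open peaks (2187, 4.06%) held 20 rises and 47 falls, and after quantile normalization 10 and 41. Transitional-open peaks (248, 0.46%) held 2 and 3, and transitional-closed peaks (235, 0.436%) 2 and 1. Peaks higher in aged than young Ttran cells with the Zfp219 guide (934, 1.73%) held 4 rises and 10 falls. Those lower in the aged cells (1210, 2.25%) held 27 and 17. All of these counts are at or under 2.23% of the peaks of their list in either direction.

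In the deposited scaling the falls recurred with the Dusp5 guide in the other aged states, which share no library with Ttran. Of the 1317 falls, 1090 (82.8%) also had a negative log2 fold change in aged Tprog, 1161 (88.2%) in aged Tterm and 1151 (87.4%) in aged Ttad. Over all peaks these shares were 52.5%, 50.5% and 49.7%. Called as falls there were 116 (8.81%), 362 (27.5%) and 249 (18.9%) of them, against 0.652%, 2.56% and 1.67% of all peaks. The falls are strong peaks, so the same was counted within the strongest decile. There 81.7%, 92.1% and 94.2% of the 607 falls had a negative log2 fold change, against 47.3%, 83.0% and 81.1% of all peaks of that decile. Called as falls were 8.57%, 31.3% and 28.2% of them, against 1.52%, 11% and 8.37% of all peaks of that decile. Strong peaks thus tended to be lower with the Dusp5 guide in aged Tterm and Ttad whether or not they were called in Ttran. For the rises the counts were lower. Of the 730, 506 (69.3%), 521 (71.4%) and 496 (67.9%) had a positive log2 fold change, against 47.5%, 49.5% and 50.3% of all peaks. Called as rises were 13 (1.78%), 50 (6.85%) and 34 (4.66%), against 0.178%, 1.55% and 1.21%.

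A small set of peaks was called in all 4 aged states. In aged Tprog, Tterm and Ttad together 33 peaks were called as falls, and 25 of those also fell in Ttran. As rises only 3 peaks were called in all 3 other states, and none of them was a called rise in Ttran. By sign alone, 272 of the 730 rises (37.3%) were positive in all 3, against 15.7% of all peaks. Of the 1317 falls 901 (68.4%) were negative in all 3, against 17.9%. The strongest Runx3 change was among the 25, with log2 fold changes of -0.45, -0.44 and -0.61 in aged Tprog, Tterm and Ttad beside -0.74 in Ttran. So were the Gtf2i peak, with -0.54, -0.46 and -0.51, and a peak at Il1r2, the gene of the interleukin-1 decoy receptor, with -0.51, -0.44 and -0.59. Il1r2 read 292 and 327 against 522 and 548 in Ttran. Peaks of Fyn, a kinase of T cell receptor signalling, of Jdp2, an AP-1 partner, of Rora and of Mapkapk3, a kinase downstream of p38 and ERK, belonged to the same 25. Whether the states were sorted from the same pooled mice is not given in the sources used here.

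The same counts were made in young hosts. Of the 1317 falls 67.0%, 62.1% and 64.5% had a negative log2 fold change in young Tprog, Ttran and Tterm, against 50.8%, 51.2% and 49.6% of all peaks. Called as falls were 35 (2.66%), 35 (2.66%) and 19 (1.44%), against 0.401%, 0.353% and 0.134% of all peaks. Within the strongest decile 80.2%, 76.6% and 80.1% of the falls were negative, against 66%, 66.6% and 75.8% of all peaks of that decile. Of the 730 rises 55.9%, 55.5% and 55.6% were positive, against 49.2%, 48.8% and 50.4%. Called as rises were 8 (1.10%), 3 (0.411%) and 2 (0.274%), against 0.381%, 0.293% and 0.139%.

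**Figure D5:**
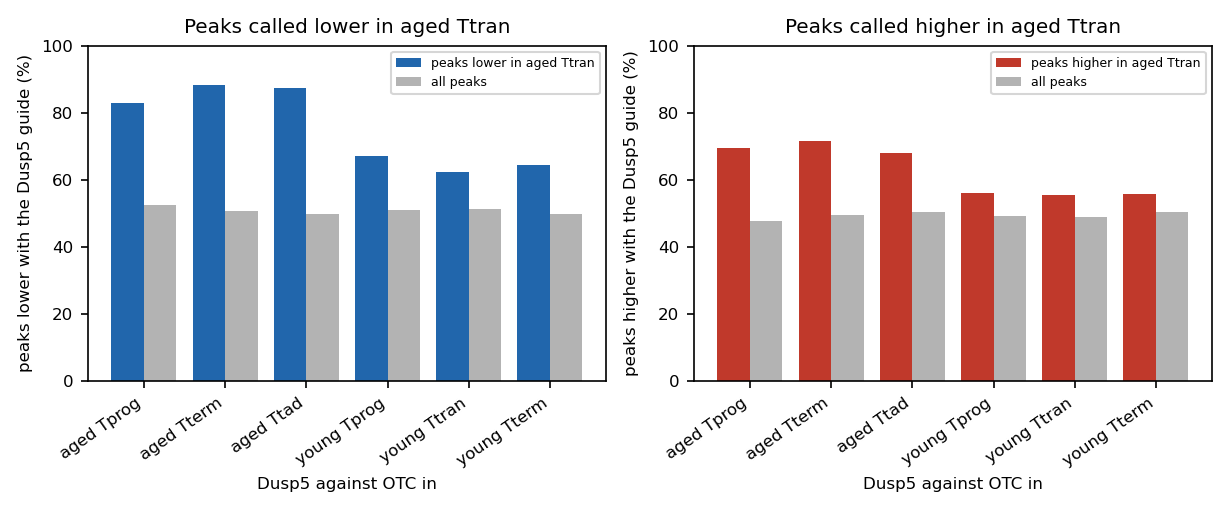
Percent of the 1317 falls and of the 730 rises of aged Ttran cells whose log2 fold change had the same sign with the Dusp5 guide in each of the 6 other groups, beside the percent of all peaks with that sign. Falls range from 62.1% in young Ttran to 88.2% in aged Tterm.

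The difference between effects was tested directly. The effect in aged Ttran differed from the mean effect in aged Tprog, Tterm and Ttad at 104 peaks (0.193%), 50 with a positive and 54 with a negative difference. Among these were Mpp6 (difference 4.11), the Nr4a3 peak 86857 bp away (3.48) and Thy1 (-1.43). At Thy1 the effects were 0.62 in aged Tprog, -2.85 in Tterm and -4.64 in Ttad, beside -3.72 in Ttran. The fall at Thy1 was thus larger in Ttad than in Ttran. The effect in aged Ttran differed from that in young Ttran at 719 peaks (1.33%), 261 positive and 458 negative. Of the 719, 491 were also called in aged Ttran, where 3.8% of all peaks were called. The difference contains the aged Ttran comparison itself, so overlap is built in. After quantile normalization the counts of 104 and 719 became 101 and 551. The Epas1 peak fell by 1.22 in aged Ttran and rose by 0.50 in young Ttran, a difference of -1.71 ± 0.17 (SE, adjusted p = 1.07e-12). The peak 24594 bp from Elk3, an ETS factor that ERK phosphorylates, fell by 0.56 in aged and rose by 0.74 in young Ttran, a difference of -1.30 ± 0.17 (SE, adjusted p = 2.2e-07). Without control Ttran replicate 1, 260 peaks differed from the other aged states in place of 104.

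Against the Zfp219 guide in the same state and host, 2797 peaks (5.19%) were called, 1815 higher (3.37%) and 982 lower (1.82%) with the Dusp5 guide. After quantile normalization 2641 were called, 1654 higher and 987 lower. This comparison shares its Dusp5 libraries with the one above, which by itself favours overlap. Of the 2797 peaks 290 were also called against the control guide. Among the 730 rises 58 were higher here too, and among the 1317 falls 103 were lower. Most peaks called against the control guide were thus not called the same way against the Zfp219 guide. In the list of ERK phosphatases and feedback inhibitors 14 of 140 peaks were higher (10%) and at immediate-early genes 25 of 241 (10.4%), with 0 and 3 lower. Of the 14, 4 lay at Dusp22 and 2 at Dusp10. The ERK cascade list held 3 higher and 3 lower of 145 (2.07% each). Progenitor genes held 29 higher of 294 (9.86%), tissue residency genes 10 of 99 (10.1%) and chemokine and cytokine genes 11 of 138 (7.97%). Higher peaks made up 1.01% at transitory effector genes, 3.03% at cytokine receptor genes and 4.15% at the receptor brakes. At terminal exhaustion, T cell identity, cell cycle and interferon-stimulated genes they made up 4.36%, 4.55%, 1.82% and 2.7%. Lower peaks were most frequent at interferon-stimulated genes (3 of 37, 8.11%). The lists were not matched for strength here either. After quantile normalization the 5 counts of 14, 25, 29, 10 and 11 were 13, 26, 28, 10 and 13. Without 1 of the libraries the counts in the deposited scaling became smaller, and so did the count of higher peaks over all peaks.

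Examples from these lists are given with the control libraries beside them. A peak 12159 bp from Jun read 499 and 513 with the Dusp5 guide, 236 and 245 with the Zfp219 guide and 660 and 458 with the control guide. It was higher than with the Zfp219 guide by 1.07 ± 0.15 (SE, adjusted p = 4.78e-07). At Dusp1, an immediate-early phosphatase of MAP kinases, the values were 232 and 225, 102 and 123, and 278 and 311. At Cd69, an early activation and residency marker, they were 344 and 356, 167 and 166, and 334 and 354. Ccr7, the lymph node homing receptor gene, held 6 higher peaks among 11, and Foxp1, a quiescence factor gene, 8 among 46. A peak at Hsp90aa1, the gene of a heat shock chaperone, was chosen after its values were seen for its small adjusted p in this comparison. It read 780 and 645, 378 and 431, and 769 and 638. The Slamf6 peak read 318 and 309 with the Zfp219 guide and was 0.70 higher with the Dusp5 guide (adjusted p = 0.0013). At the Jun, Cd69, Hsp90aa1 and Slamf6 peaks the Dusp5 libraries overlapped or bordered the control libraries, and the Zfp219 pair was lower than both. At Dusp1 the 3 guides did not overlap.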

How the data were processed

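ATAC-seq libraries of the 21 groups (48 libraries) came as 1 table of peaks. Per the submitters' processing notes, mm10, Bowtie2 2.2.9, Picard 2.8.0, MACS2 2.1.1, SAMtools 1.3.1 and DESeq2 1.28.1 were used, with roles not given in the sources used here. The deposited signal values are read counts per peak that the authors divided by a size factor for each library, as the spacing of the values shows. Whole reads were recovered for 100% of the values (within 0.001 reads). Coordinates are printed as deposited, and whether they count from 0 or 1 is not given.

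The main test was limma 3.58.1 (R 4.3.3) on log2(value + 1) with trend, 1 mean per group over all 48 libraries, Benjamini-Hochberg over 53868 peaks and a threshold of 0.05. Alternatives were edgeR 4.0.16 on the recovered reads (1777 peaks called), DESeq2 1.42.0, TMM, quantile normalization, a pseudocount of 8, library weights, the 4 libraries alone, a replicate block, a filter on weak peaks and each library left out. Effect differences were contrasts in the same fit. The code was checked on simulated data.

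Peaks were assigned to a gene whose body they overlap, otherwise to the nearest within 100 kb (51109 of 53868). The RefSeq tables (GRCm38.p6) gave gene positions and promoters. State lists used young control groups, and age lists used aged against young Ttran with the Zfp219 guide. Both required a log2 difference of at least 1. Named peaks were all peaks of Dusp5, the 10 largest called rises and falls with a mean of at least 20 in the higher group, the 5 with the smallest p each way, the top peaks of the 5 genes with most calls each way, the largest 5 promoter changes each way, and the top called peaks of each gene list. Peaks called in all aged states, the CArG search and the Zfp219 list counts were added after the data were seen. The groups compared and the gene lists were chosen with earlier results of these data known.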

Additional observations from a re-analysis of the deposited data

Results flagged for a closer look

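Effects of the Dusp5 guide in aged Ttran cells that differed from those in other groups were picked out by a test of the difference itself, adjusted over all peaks. Groups of 2 or 3 libraries are too small to look for a single library far from the others. Against the mean effect in aged Tprog, Tterm and Ttad, 104 peaks differed, and against young Ttran, 719. The values below are differences of log2 fold changes at named peaks.

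Against the other aged states the difference was positive at Mpp6 (4.11), the distal Nr4a3 peak (3.48), P4ha1 (3.34), Ankrd22 (3.13), Zfp668 (2.79), Jazf1 (2.70), Med13 (2.64), Eml4 (1.76), Epb41l1 (1.25), Cd101 (1.20) and Itgae (0.67). It was negative at Saxo1 (-4.56), Thy1 (-1.43), Epas1 (-0.80) and Galnt2 (-0.41). The other states were not alike at Thy1, with effects of 0.62 in Tprog, -2.85 in Tterm and -4.64 in Ttad beside -3.72 in Ttran. At Galnt2 they were -0.06, -0.43 and -0.33 beside -0.69. Most of the large positive values lay at peaks with few reads in the control libraries.

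Against young Ttran the difference was positive at Krba1 (5.27), Mpp6 (4.10), Med13 (3.8), Zfp706 (3.78), Ankrd22 (3.39), the distal Nr4a3 peak (3.35), P4ha1 (3.31), Ceacam2 (3.31), Zfp668 (3.08), Eps8l1 (2.46), Eml4 (2.36), Epb41l1 (1.58) and Usp18 (1.38). Smaller positive values were found at Zfp213 (0.66), Itgae (0.64), Rasgrp1 (0.54), Gm40369 (0.47) and Gm40363 (0.33).

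Negative differences from young Ttran were largest in size at Hpse2 (-4.29), Thy1 (-4.06), Csf2 (-3.99), Saxo1 (-3.95), Iqgap1 (-3.57), Kif1a (-3.08) and the weaker of 2 Itpr1 peaks (-3.34). Genes with differences beyond -1 were Epas1 (-1.71), Elk3 (-1.30), Ly6c2 (-1.24), Gtf2i (-1.19) and Kctd8 (-1.18). Among T cell genes the values were -0.84 at Nr4a3 within the gene, -0.34 at Nr4a2, -0.61 at Cd28, -0.58 at Prf1, -0.53 at Zap70, -0.53 at Ubash3b and -0.40 at Tnfrsf18. The 3 named Runx3 peaks gave -0.55, -0.39 and -0.32, and the pair at Il4ra -0.38 and -0.51. The remaining ones were Bhlhe40 (-0.66), the stronger Itpr1 peak (-0.65), Ccr8 (-0.60), Dusp16 (-0.57), Cmip (-0.47) and Galnt2 (-0.45).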

How the results depend on the processing

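With 2 pools a group the tests are limited by replicate number, and weak peaks by depth. In the main comparison 2047 peaks were called, and 745 with the compared libraries alone, 1134 with library quality weights, 1291 after quantile normalization and 706 to 1549 with 1 library left out. The difference from the other aged states (104 peaks) gave 180 with DESeq2, 35 with the compared groups alone, 37 with quality weights and 26 to 260 with 1 library left out. The difference from young Ttran (719) gave 1141 with DESeq2, 428 with the compared groups alone and 349 to 778 with 1 library left out. The comparison with the Zfp219 guide (2797) gave 4416 with DESeq2, 4252 alone, 4852 with weights and 860 to 1405 with 1 library left out. Apart from alternatives with fewer samples, the cause was not tested. TMM, edgeR, a pseudocount of 8 and removal of the weakest 25% of peaks kept these counts within 1.5 times.

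With a replicate block the 4 counts were 2013, 110, 701 and 2769. Whether same-numbered libraries share mice is not given in the sources used here. The deviations of the compared pair correlated at 0.012, within -0.015 to 0.015 over 66 pairs of aged groups. Counting noise enters every deviation, so this value cannot settle it. Among 116 named called peaks, 87 were still called after quantile normalization and 2 changed sign there: Cic at 0.01 (0.0058) and Bach2 at 0.00 (0.0013). Between 71 and 85 were called with 1 library left out. The reading of the gene lists with 1 library left out, and their quantile and edgeR counts against the Zfp219 guide, were chosen after seeing the data.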
